A study of Mus musculus with 8 samples.

Results

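The keratin genes Krt5, Krt14, Krt8, Krt18, Krt10, Krt19, Krt15, Krt17, Krt7 and Krt80 were followed through single-cell libraries of mouse thymic epithelial cells (TEC). These 10 genes were chosen by symbol out of the 27514 genes shared by the gene lists of both data sets, and all 10 had at least 1 UMI (a unique molecular identifier, which marks 1 captured transcript). A further 36 genes of both lists carry a symbol of Krt and digits. The 8 libraries came from wild-type (WT) mice of the strain C57 B6 (CD45.2), sorted as live, DAPI- cells that were EpCAM+ and CD45-. E13.5 TEC were total TEC, since that gate used no further marker. The E15.5, E17.5, newborn (NB) and adult cortical libraries (cTEC) were Ly51+ UEA-1-, and the adult medullary libraries (mTEC) were Ly51- UEA-1+. The libraries fell into 2 data sets, with E17.5 cTEC, adult cTEC 2 and adult mTEC 2 in data set 2 and the other 5 in data set 1. Each age under the adult was 1 library, the adult groups were 2 libraries each, and no library of fetal or newborn mTEC was analysed here. The labels do not tie a library to animals, so the p-values below measure the spread between these libraries. For the adult lineages edgeR, the test used below, took most of that spread from all genes tested together. Little of it came from the libraries of any single gene.

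Keratins are the intermediate filament proteins of epithelial cells. A filament is built from pairs of 1 acidic type I and 1 basic type II chain. Krt8 (type II) and Krt18 (type I) are the pair of simple epithelia, and Krt5 (type II) and Krt14 (type I) are the pair of basal cells in layered epithelia. In the thymus, antibodies to Krt8 and Krt18 are used to mark the cortex and antibodies to Krt5 and Krt14 the medulla. Krt19 and Krt7 are found in ducts and other simple epithelia, Krt15 and Krt17 in basal cells and skin appendages, and Krt10 in the suprabasal, differentiating layers of the epidermis.

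The type I genes lie together on chromosome 11 and the type II genes on chromosome 15, and Krt18 is the exception, a type I gene beside its partner on chromosome 15. In the GENCODE vM21 annotation of GRCm38, the assembly also named mm10, Krt8 spans chr15:101996698-102004482 on the minus strand and Krt18 spans chr15:102028180-102032027 on the plus strand. Their starts face each other and 23697 bases separate them. Krt5 is at chr15:101707070-101712898 (minus), Krt14 at chr11:100203162-100207548 (minus) and Krt17 at chr11:100256217-100261029 (minus). Krt14 and Krt17 lie 48668 bases apart, and Krt15 and Krt19 lie 4881 bases apart. The RefSeq promoter table held a window of 250 bases before a start for 6 of the 10 members. The windows of Krt14 and Krt7 lay wholly inside their GENCODE genes, the Krt14 window in the first intron, so neither is shown as a promoter. Sequences are shown for Krt8 and Krt18, neighbours and partners, and for Krt5, since the comparisons below turn on these genes. Each is the part of the window that precedes the GENCODE gene (GRCm38.p6), read 5′ to 3′ on the gene's strand. All 250 bases of the Krt5 window did, at chr15:101712906-101713155. For Krt8, 110 bases did, at chr15:102004483-102004592. For Krt18, 214 bases did, at chr15:102027966-102028179. Capitals mark matches on either strand to TATAAA (the TATA box), to GGGCGG (the letters of Sp1 sites), to TGANTCA (those of AP-1 sites) or to GCCNNNGGC (those of AP-2 sites).
Krt5: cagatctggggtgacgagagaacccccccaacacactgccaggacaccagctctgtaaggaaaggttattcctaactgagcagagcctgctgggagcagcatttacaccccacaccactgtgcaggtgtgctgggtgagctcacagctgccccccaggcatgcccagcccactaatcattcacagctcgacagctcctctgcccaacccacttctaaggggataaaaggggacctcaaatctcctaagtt
Krt8: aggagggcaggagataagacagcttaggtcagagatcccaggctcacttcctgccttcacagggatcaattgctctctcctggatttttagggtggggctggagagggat
Krt18: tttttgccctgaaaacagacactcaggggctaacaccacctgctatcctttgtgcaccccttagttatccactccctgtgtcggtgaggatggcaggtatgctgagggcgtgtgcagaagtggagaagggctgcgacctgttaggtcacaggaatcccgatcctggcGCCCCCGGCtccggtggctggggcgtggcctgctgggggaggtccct

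Over the whole 250-base windows, Krt18 held 1 match to GCCNNNGGC, beginning 83 bases before the RefSeq start, and those of Krt5 and Krt8 held no match to any of these letters. Over 32851 RefSeq promoter windows of the same length, 13.7% held GCCNNNGGC, 12.4% held TATAAA, 32.7% held GGGCGG and 6.75% held TGANTCA. Krt10, whose window also preceded its gene, held TATAAA 26 bases before its start.

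After cells with over 5% mitochondrial UMIs or over 5000 genes were left out, 25750 of 28334 cells remained, and 25432 of these were epithelial-like and were used below. They numbered 1857 for E13.5 TEC, 3564 for E15.5, 8350 for E17.5 and 3434 for NB cTEC, 492 and 535 for the adult cTEC and 1585 and 5615 for the adult mTEC libraries. Adult cTEC thus rested on the fewest cells, with 2155320 and 4040026 UMIs, against 14478339 to 89998087 in the other libraries. At most 61 barcodes, or 1.165% of the smaller library, were shared by any pair of libraries. Clusters were built without any keratin. The 131 parathyroid-like cells (124 at E13.5) and 187 thymocyte-like cells (171 in NB cTEC) were left out. Psmb11 and Prss16, defining cTEC genes, checked the labels: at least 2 UMIs of the pair were found in 71.2% of E13.5 TEC, 99.0% to 99.8% of E15.5, E17.5 and NB cTEC, 6.81% and 8.73% of adult mTEC, but 50% and 71.6% of the adult cTEC. Some results for adult cTEC are therefore also given for the cells with these cortical transcripts alone. They are the levels of Krt5, Krt14, Krt15, Krt19 and Krt80, the ratio of Krt18 to Krt8 and parts of the fits. All other adult cTEC values, with the shares of cells and of pairs, include the cells without these transcripts. At E17.5, a cluster of 2252 cells led by haemoglobin genes had Krt8 at 3014 CPM (UMIs of the gene per 1000000 UMIs of the sample) against 4241 in the other cells and Krt18 at 5528 against 7940. The gaps were wider for Krt17 (959 against 2032 CPM), Krt7 (218 against 425) and Krt5 (38.8 against 90.9). These cells are part of the E17.5 values below, and their part in those values was not tested.

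Krt8 and Krt18 were the most abundant keratins of every library of the cortical line. Each UMI marks 1 captured 3′ end whatever the length of the transcript, so levels of different keratins were compared as UMIs, with no scaling by length. The 10 keratins together took 0.589% of all UMIs in E13.5 TEC, 1.36% and 1.35% in E15.5 and E17.5 cTEC, 2.07% in NB cTEC, 1.18% and 1.22% in adult cTEC and 1.01% and 0.848% in adult mTEC. UMIs of the 6 type I genes outnumbered those of the 4 type II genes in each library, by 1.38 to 1 at E13.5, 1.85 at E15.5, 2.04 to 2.14 in the other cTEC libraries and 2.68 and 2.44 in mTEC. Krt8 and Krt18 made up 73.8% of these keratin UMIs in E13.5 TEC, 91.1% in E15.5, 83.2% in E17.5 and 85.8% in NB cTEC, and 75.6% and 85.6% in the adult cTEC libraries. In the adult mTEC libraries their share was 30.8% and 36.6%. There Krt17 took 46.6% and 45.9%, against 7.30% to 13.3% in the 6 libraries of the cortical line. Krt5 and Krt14 together took 16.8% and 11.3% in mTEC, 5.02% and 2.80% in adult cTEC, and 0.585% to 0.834% in E15.5 to NB cTEC. In E13.5 TEC they took 11.8%, of which nearly all was Krt5 (11.5% of keratin UMIs).

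**Figure D1:**
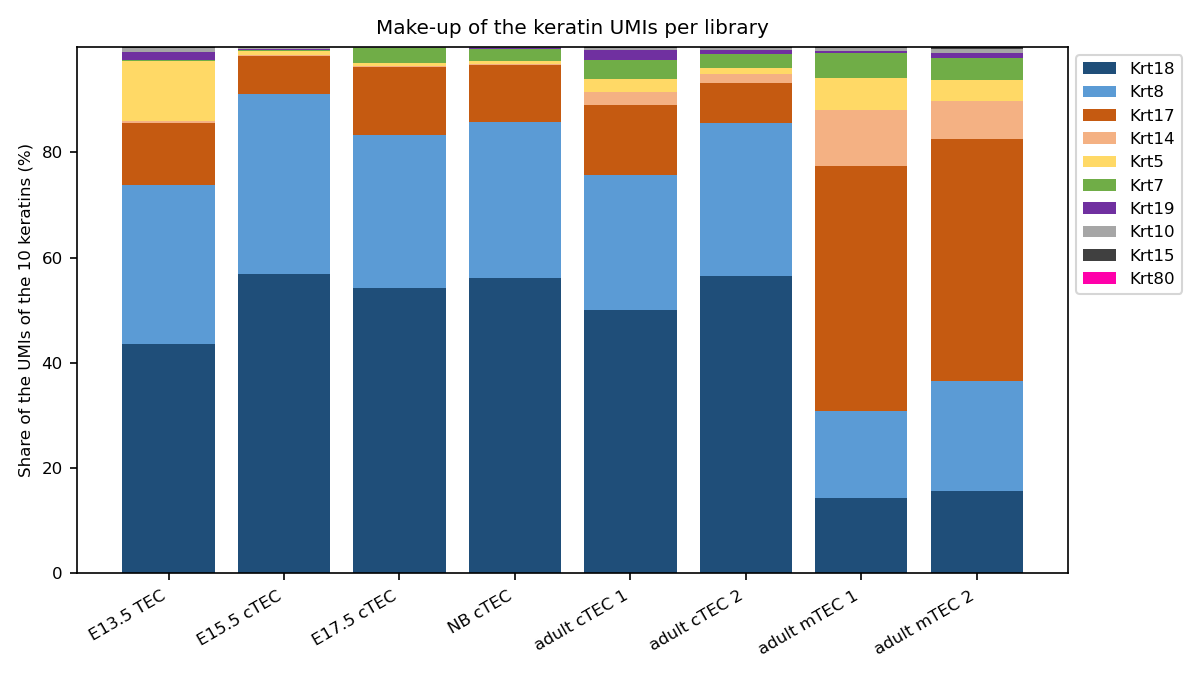
Each bar divides the UMIs of the 10 keratins in the epithelial-like cells of 1 library (percent of keratin UMIs, y axis) among the genes. Krt8 and Krt18 fill 73.8% to 91.1% of the bars of the cortical line, while Krt17 fills 46.6% and 45.9% of the adult mTEC bars.

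Krt8, the type II chain of the simple pair, was at 1787 CPM in E13.5 TEC, 4644 in E15.5, 3932 in E17.5 and 6125 in NB cTEC, 3021 and 3546 in adult cTEC, and 1663 and 1775 in adult mTEC. Krt18 was at 2564 CPM in E13.5 TEC, 7726, 7333 and 11643 in E15.5, E17.5 and NB cTEC, 5882 and 6897 in adult cTEC, and 1447 and 1325 in adult mTEC. Both genes were lowest in mTEC and E13.5 TEC and highest in NB cTEC. The adult cTEC and mTEC libraries did not overlap for either gene. The pair did not keep 1 ratio. UMIs of Krt18 per UMI of Krt8 were 1.43 at E13.5, 1.66, 1.86 and 1.90 at E15.5, E17.5 and NB, and 1.95 in both adult cTEC libraries, but 0.870 and 0.746 in adult mTEC. In adult cTEC with cortical transcripts the ratio was 1.95 and 1.97, and in those without it was 1.92 and 1.62.

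Krt5, the type II basal chain, stood at 675 CPM in E13.5 TEC, 87.4 in E15.5, 77.8 in E17.5 and 86.9 in NB cTEC, then 296.9 and 148.0 in adult cTEC and 605 and 342 in adult mTEC. Its type I partner Krt14 was at 20.7 CPM in E13.5 TEC, 25.9, 26.0 and 34.3 in E15.5, E17.5 and NB cTEC, 294 and 194 in adult cTEC, and 1087 and 619 in adult mTEC. Thus E13.5 TEC had the highest Krt5 of all 8 libraries and the lowest Krt14. There were 0.0307 UMIs of Krt14 per UMI of Krt5 at E13.5, 0.296 to 0.394 from E15.5 to NB, 0.991 and 1.31 in adult cTEC and 1.80 and 1.81 in adult mTEC. In adult cTEC with cortical transcripts alone, Krt14 was at 203 and 112 CPM and Krt5 at 273 and 119, and Krt14 remained above its level in E15.5 to NB cTEC.

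Krt17, a type I keratin of basal and appendage cells, was at 691 CPM in E13.5 TEC, 992, 1762 and 2260 in E15.5, E17.5 and NB cTEC, 1564 and 924 in adult cTEC, and 4704 and 3893 in adult mTEC. It was the most abundant keratin of both mTEC libraries, above Krt8. Krt7, a type II chain of simple epithelia, was at 10.4 CPM in E13.5 TEC and 40.3 in E15.5 cTEC, and between 319 and 511 in the other 6 libraries. Cortical and medullary adult libraries overlapped for Krt7 (426 and 319 against 475 and 343 CPM). In the last 400 bases of the longest transcripts, 41 of 370 words of 31 bases were identical between Krt14 and Krt17. A read that lies wholly within such a stretch cannot be assigned to 1 of these genes. How many reads did so was not tested. For Krt18, 49 of the 370 words were also found in other genes, 44 of them in the gene model Gm5200. For Krt7 there were 77, at most 20 in any 1 gene. For Krt19 there were 5 and for Krt80 33. Krt5, Krt8, Krt10 and Krt15 shared none.

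Krt19, a small type I keratin of ducts and epithelial progenitors, was at 85.2 CPM in E13.5 TEC, 13.8 in E15.5, 3.04 in E17.5 and 0.865 in NB cTEC, 218 and 94.8 in adult cTEC, and 51.4 and 90.8 in adult mTEC. Krt15, a type I basal keratin, was at 13.1, 4.11 and 0.722 CPM in E13.5, E15.5 and E17.5 libraries. A single UMI was found in NB cTEC. Adult cTEC had 21.3 and 12.4 CPM and adult mTEC 24.97 and 30.95. Both genes thus had their lowest values in E17.5 and NB cTEC. In adult cTEC, Krt19 lay mostly in cells without cortical transcripts, where it was at 452 and 444 CPM, against 60.6 and 6.51 in those with them. For Krt15 the values were 21.9 and 58.9 CPM without and 21.0 and 0.620 with them. Krt10, the type I suprabasal keratin, varied least of the members, from 34.5 CPM in E17.5 cTEC to 59.0 in adult mTEC 2. Krt80, a type II chain of differentiating epithelia, was at 0 in all 5 libraries of data set 1. A count of 0 allows up to 0.180 CPM in adult mTEC 1 and up to 1.39 in adult cTEC 1, taking 3 counts per library as the limit. In data set 2 it was at 2.48 CPM in adult cTEC 2 and 4.22 in adult mTEC 2, with 2 UMIs in all of E17.5 cTEC. All 10 UMIs of adult cTEC 2 lay in the cells without cortical transcripts, where Krt80 was at 12.3 CPM. The cells with them had 0 UMIs, and the exact Poisson interval reached 1.14 CPM. The data sets were made with different gene lists, and a difference between them cannot be told apart from one in the cells. Intervals and limits here cover counting error only.

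**Figure D2:**
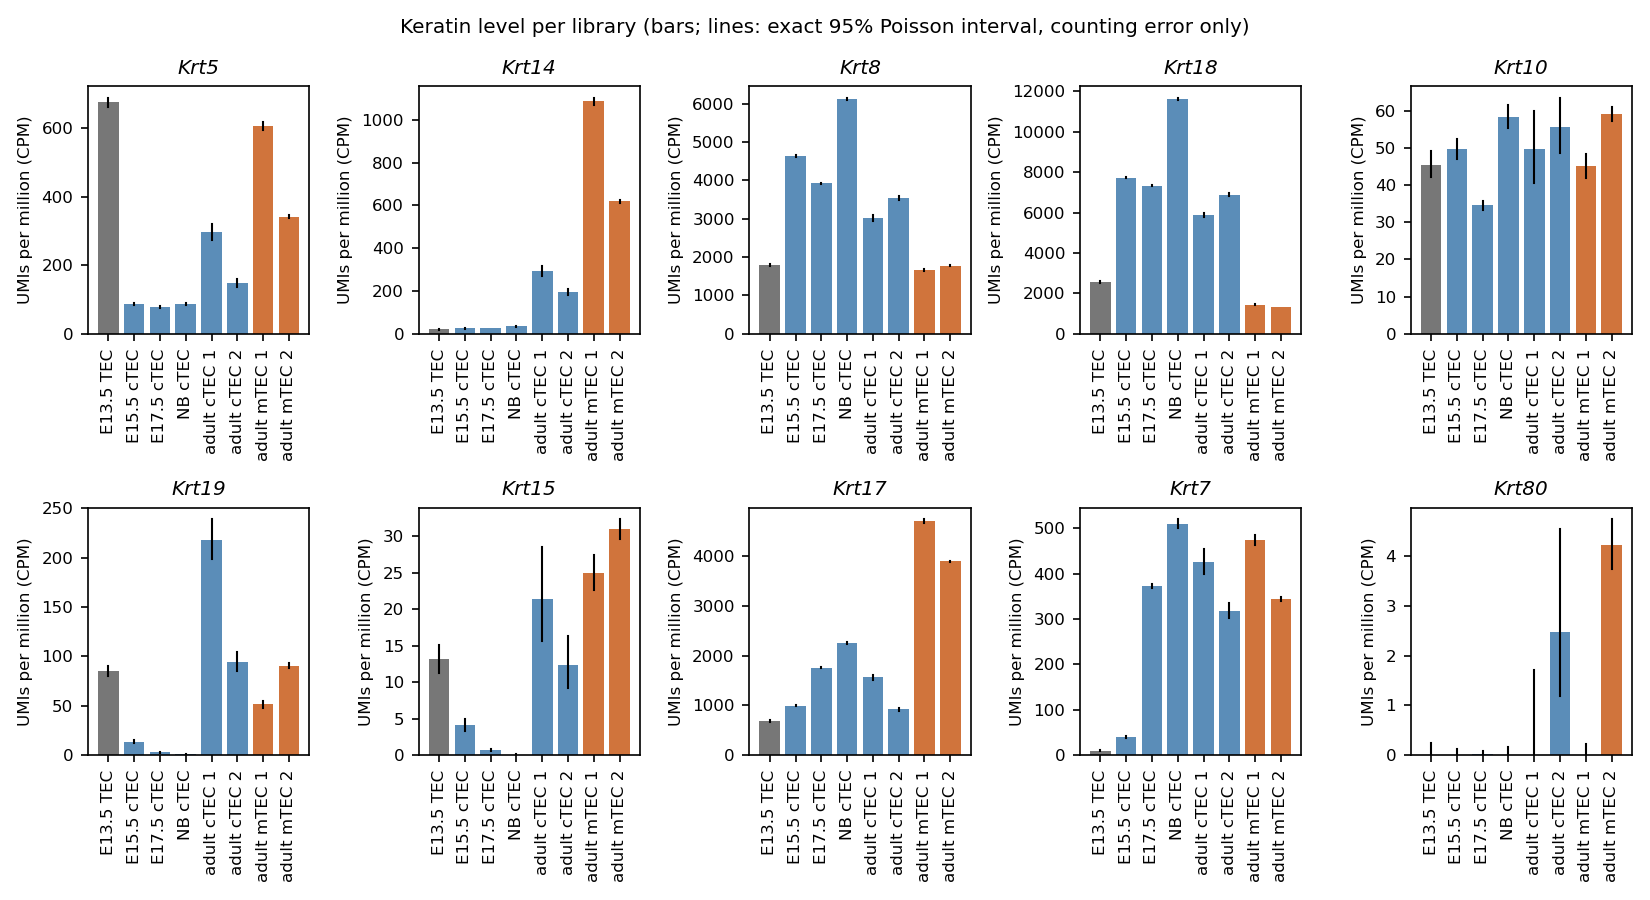
Each panel shows 1 keratin and each bar its CPM in the epithelial-like cells of 1 library (grey, E13.5 TEC; blue, cTEC; orange, mTEC), with the exact 95% Poisson interval of the count as a line. Krt18 stands at 2564 CPM in E13.5 TEC, 11643 in the NB library and 1447 and 1325 in adult mTEC, while Krt14 stays at 20.7 to 34.3 CPM until NB cTEC and reaches 1087 and 619 in adult mTEC.

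To ask which keratins differ between cortex and medulla in adult mice, UMIs summed per library were fitted with edgeR's quasi-likelihood test, with the data set as a term and Benjamini-Hochberg adjustment over 15627 genes. Krt18 was 4.38-fold higher in adult cTEC, and Krt17, Krt14 and Krt5 were 3.74-, 3.60- and 2.28-fold higher in adult mTEC. These 4 of 10 members passed an adjusted p of 0.05, where 32.4% of all genes tested did, so the share of members called was near that of genes in general. Only Krt18 was called higher in cTEC, the direction taken by 11.2% of all genes, and 3 members were called higher in mTEC, as were 21.2% of all genes. The log2 fold change of cTEC over mTEC was 2.13 for Krt18 (SE 0.46, adjusted p = 0.000134), −1.90 for Krt17 (SE 0.45, adjusted p = 0.000466), −1.85 for Krt14 (SE 0.41, adjusted p = 0.000206) and −1.19 for Krt5 (SE 0.39, adjusted p = 0.0145). Each had the same sign in both data sets. The log2 ratio of CPM was 2.02 and 2.38 for Krt18, −1.59 and −2.08 for Krt17, −1.89 and −1.67 for Krt14, and −1.03 and −1.21 for Krt5.

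The partners Krt8 and Krt18 did not pass together. Krt8 had a log2 fold change of 0.86 (SE 0.43, adjusted p = 0.123 in edgeR) and did not pass, although its libraries did not overlap. With DESeq2 (adjusted p = 0.0195) and with cTEC limited to cells with cortical transcripts (adjusted p = 0.0370) it passed. Krt19 had 1.002 (SE 0.41, adjusted p = 0.0522). With adult cTEC limited to cells with cortical transcripts its log2 fold change was −1.74 (adjusted p = 0.113). Its log2 ratio was 2.09 in data set 1 but 0.06 in data set 2. Krt15 (−0.85, SE 0.42, adjusted p = 0.119), Krt7 (−0.20, SE 0.39, adjusted p = 0.750), Krt10 (−0.04, SE 0.38, adjusted p = 0.949) and Krt80 (−0.78, SE 1.10, adjusted p = 0.646) did not pass either. CPM of the libraries did not overlap for 7 members, as for 67.7% of all genes tested. In 3 of them (Krt8, Krt18 and Krt19) cTEC lay above mTEC, as for 30.4% of all genes, and in 4 (Krt5, Krt14, Krt15 and Krt17) under it, as for 37.3%. These counts are not a result about the keratins.

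Each adult library was left out in turn, without the data set term, which pools the spread so that a lone library is taken to vary like the others. Krt18 and Krt17 were still called without either adult cTEC library, while Krt14 and Krt5 were not. No member passed without adult mTEC 1 or without adult mTEC 2. The adjusted p-values of Krt18 ran up to 0.187, of Krt17 to 0.122, of Krt14 to 0.0923 and of Krt5 to 0.436 over all alternatives, while their log2 fold changes stayed at 1.90 to 2.43 for Krt18, −2.21 to −1.64 for Krt17, −2.54 to −1.55 for Krt14 and −1.66 to −0.84 for Krt5. With all 4 libraries and no data set term Krt5 was lost as well (adjusted p = 0.100).

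**Figure D3:**
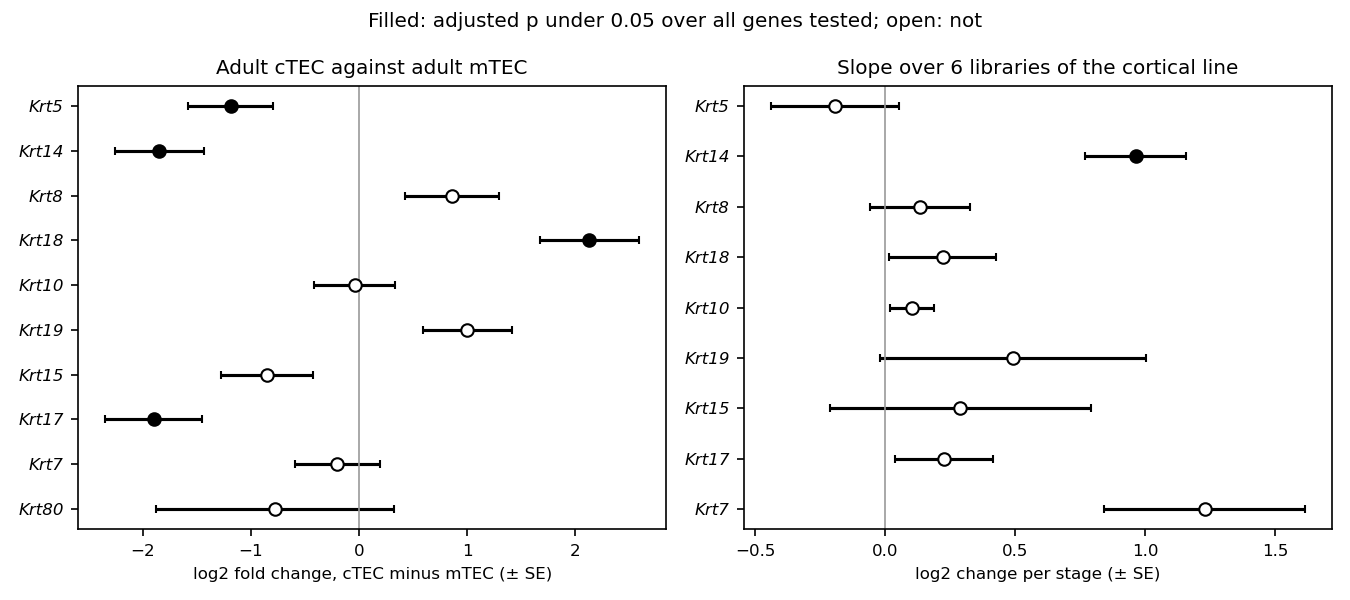
Points give the log2 fold change of adult cTEC over adult mTEC (left, 2 libraries each) and the log2 change per stage over 6 libraries of the cortical line (right), with the SE as bars and filled points for an adjusted p under 0.05. Krt18 lies at 2.13 and Krt14, Krt17 and Krt5 at −1.85, −1.90 and −1.19 on the left, and Krt14, at 0.96, is the filled point on the right.

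To ask which keratins changed along the cortical line with age, a slope was fitted over E13.5 TEC, E15.5, E17.5, NB and both adult cTEC libraries, ranked 1 to 5 by stage, again with edgeR and the data set as a term. Krt14 rose, by 0.96 on the log2 scale per stage (SE 0.19, adjusted p = 0.0371). It was the 1 of 9 members tested that passed, beside 7.5% of 14340 genes, of which 4.74% rose and 2.77% fell. Krt14 was within 20.7 to 34.3 CPM in the 4 libraries up to birth, so this slope came from the step to the adult libraries. Over all alternatives the slope of Krt14 stayed at 0.615 to 1.15. It was not called without adult cTEC 1 (adjusted p = 0.355), without adult cTEC 2 (0.0815) or in data set 1 alone (0.0844), and was called in cells with cortical transcripts alone. Without adult cTEC 1, 16 genes in all passed, and without adult cTEC 2, 460.

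Krt7 had the steepest slope of the members, 1.23 per stage (SE 0.39, adjusted p = 0.105), and did not pass in edgeR. It passed with DESeq2 (adjusted p = 0.000181) and in data set 1 alone (edgeR, adjusted p = 0.0496). Its step lay between E15.5 and E17.5, from 40.3 to 373 CPM, libraries of different data sets. Within data set 1 it went from 40.3 CPM at E15.5 to 511 at NB. Krt8 (0.13, SE 0.19), Krt18 (0.22, SE 0.21), Krt17 (0.23, SE 0.19), Krt10 (0.10, SE 0.09), Krt5 (−0.19, SE 0.25), Krt19 (0.49, SE 0.51) and Krt15 (0.29, SE 0.50) did not pass, with adjusted p-values between 0.484 and 0.756 in edgeR. The levels of Krt8, Krt18, Krt17, Krt7, Krt19 and Krt15 turned at birth, so a straight slope describes them poorly. Krt80 had too few UMIs to be tested. In the E13.5 library the gate was total TEC, so age and gate cannot be told apart there, and without that library the slope of Krt5 was 0.48 (adjusted p = 0.109).

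In single cells, keratins were compared after each cell had been thinned to 3000 UMIs, since a deeper cell shows more genes. Shallower cells were left out, 148 of 492 in adult cTEC 1 and 9 to 209 in the other libraries. Median UMIs of the cells used were 7316, 7429, 10436 and 6120 at E13.5, E15.5, E17.5 and NB, 4884 and 7293 in adult cTEC, and 9537 and 11726 in adult mTEC. Krt8 was found in 90.4% of E13.5 TEC, 96.9% to 99.8% of cells in the 5 cTEC libraries and 92.2% and 96.9% of adult mTEC. Krt18 was found in 91.3% of E13.5 TEC, 97.2% to 100% in the cTEC libraries and 86.4% and 89.97% in adult mTEC. Transcripts of the simple pair were therefore found in most mTEC, at lower levels. Krt14 was found in 3.75% of E13.5 TEC, 6.11%, 6.42% and 8.32% of E15.5, E17.5 and NB cTEC, 33.7% and 27.3% of adult cTEC, and 66.9% and 61.6% of adult mTEC. The exact 95% binomial intervals of adult cTEC, 28.7% to 39.0% and 23.5% to 31.4%, cover counting within 1 library alone and not the spread between libraries. Without thinning, Krt14 was found in 8.51%, 12.3%, 18.4%, 16.2%, 38.6%, 33.5%, 85.6% and 87.7% of cells, in the same order of libraries.

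Krt5 was found in 28.8% of thinned E13.5 TEC, 9.98%, 14.9% and 13.9% of E15.5, E17.5 and NB cTEC, 28.8% and 18.7% of adult cTEC and 50.9% and 41.0% of adult mTEC. Krt17 was in 26.1% of E13.5 TEC, 67.5% of E15.5 cTEC, 94.5% and 94.9% at E17.5 and NB, 76.7% and 68.0% of adult cTEC, and 94.2% and 98.7% of mTEC. Krt7 was in 2.92% and 10.3% of cells at E13.5 and E15.5, and in 45.6% to 66.9% in the other libraries. For Krt5 and Krt17 the shares did not keep the order of the CPM, so no order of the libraries is read from them. E13.5 TEC had the highest Krt5 CPM but fewer cells with Krt5 than adult mTEC, and adult mTEC 1 had the highest Krt17 CPM but a lower share than adult mTEC 2, E17.5 and NB cTEC. Krt19 was in 14.7% of E13.5 TEC and 0.120% of NB cTEC, then in 15.1% and 7.86% of adult cTEC. Krt15 was in at most 4.16% of cells of any library and Krt10 in 8.92% to 15.7%. Free RNA in the droplets can give UMIs to cells that do not express a gene. At E13.5 the left-out parathyroid-like cells (median 4267 UMIs), which are not of the thymic lineage, had Krt14 in 0 of 108 thinned cells, which allows a share of up to 2.78%, and Krt5 in 9.26%. The 59 E13.5 cells of a cluster led by Hhex and Nkx2-1, genes of the early thyroid, had neither after thinning, which allows up to 5.08%. The lowest share of Krt14 in a cluster of at least 20 thinned cells was 2.84% at E15.5, 3.54% at E17.5 and 6.33% at NB, under the 6.11%, 6.42% and 8.32% of these libraries as a whole. These clusters are epithelial-like and measure no background. No background share was measured from E15.5 to NB, so the shares of Krt5 and Krt14 there, and of pairs that hold them, are shares of cells with a UMI and are not read as expression in single cells.

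Shares of cells with UMIs of both the simple and the basal pair are given as measured. No background share was measured in the adult libraries either, so neither expression of both kinds in 1 cell nor an order of the ages is read from them. At least 1 UMI of Krt8 or Krt18 together with 1 of Krt5 or Krt14 was found in 30.1% of E13.5 TEC, 14.9%, 19.8% and 20.4% of E15.5, E17.5 and NB cTEC, 50% and 37.1% of adult cTEC and 72.3% and 71.9% of adult mTEC. Cells with the simple pair alone were 67.4% of E13.5 TEC, 79.6% to 85.0% from E15.5 to NB, 50% and 62.1% of adult cTEC and 24.7% and 27.5% of adult mTEC. Basal keratin alone was rare, 1.84% and 0.462% of mTEC and at most 0.220% elsewhere. With the top 10% of cells by UMIs left out, cells with both kinds were 48.6% and 35.6% of adult cTEC and 71.6% and 72.0% of adult mTEC. With at least 2 UMIs asked of a gene, cells with both kinds were 26.5% and 19.8%, and 53.9% and 41.3%.

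The counts of cells with both genes of a pair were set beside the product of the shares of each, as a description with the same limit. Krt5 and Krt14 were together in 2.26% of cells at E13.5, in 12.5% and 8.84% of adult cTEC, and in 43.7% and 30.2% of adult mTEC. This was 2.09, 1.29, 1.73, 1.28 and 1.198 times the product. UMIs of both were found in 1.18%, 1.52% and 1.80% of cells at E15.5, E17.5 and NB. Of the cells with Krt5, 7.84% also had Krt14 at E13.5, against 85.8% and 73.7% in adult mTEC. Of those with Krt14, 60.3% had Krt5 at E13.5. Krt8 with Krt18 was found in 81.6% to 99.8% of cells and at 0.9996 to 1.02 times the product. Krt14 met Krt8 at 0.98 to 1.03 times the product and Krt18 at 0.98 to 1.02 times, but the simple keratins were found in at least 86.4% of cells of each library, which leaves such a ratio little room above 1. Krt5 met Krt8 at 0.99 to 1.06 times. Krt14 with Krt17 reached 2.53 times the product at E13.5 and 1.29 at E15.5, and 1.0015 to 1.07 in the other libraries. Krt14 with Krt15 was rare, at 33 and 155 cells in mTEC (1.10 and 1.12 times), and at most 4 cells elsewhere. Krt7 with Krt19 came to 9.88% and 4.13% of adult cTEC and 2.54% and 5.85% of mTEC. Of the cells with Krt19, 88.5% to 100% also had Krt8. Krt10 with Krt14 was in 7.23% and 5.36% of mTEC, and Krt10 with Krt80 in 24 cells of adult mTEC 2, 3.90 times the product. The cells of 1 library are not replicates, and no test was made of these ratios.

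**Figure D4:**
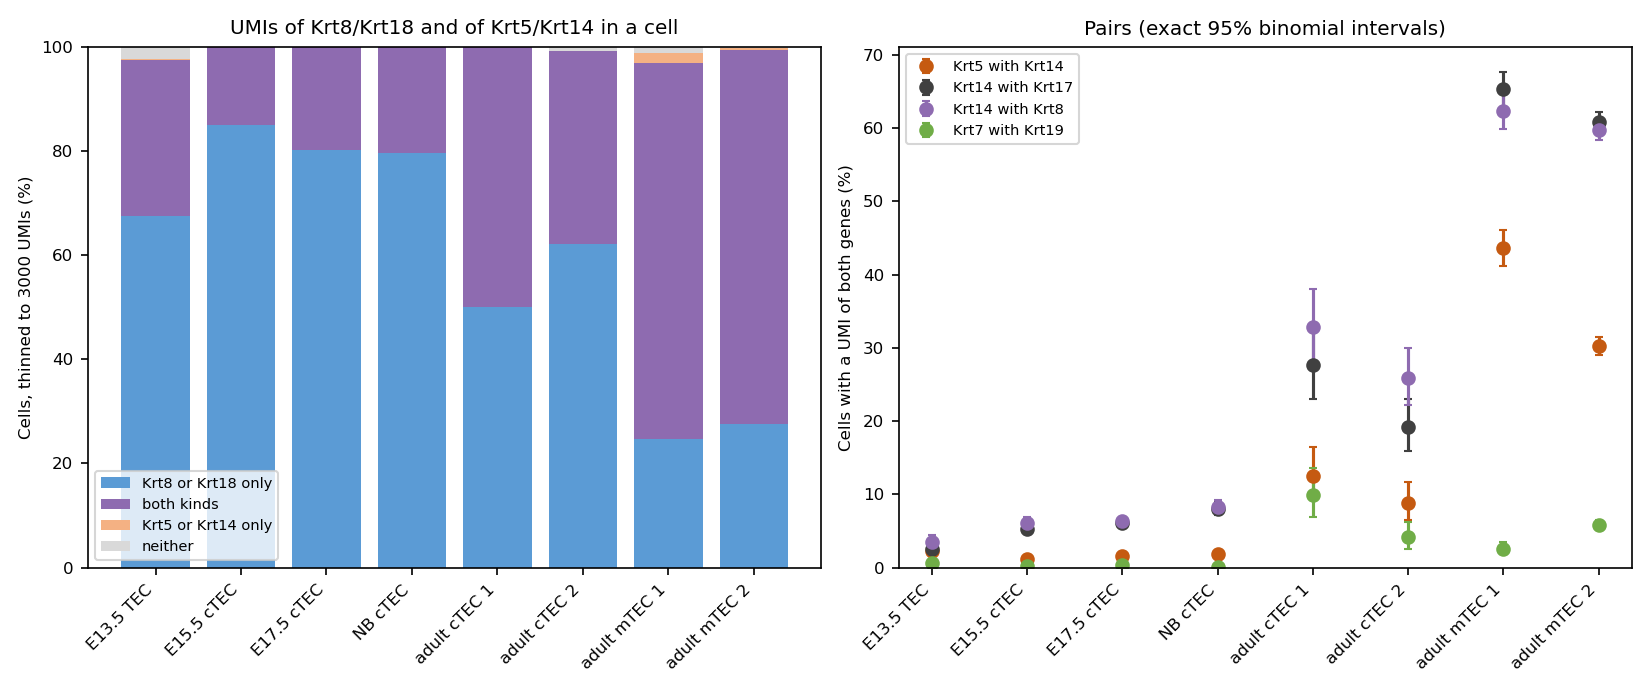
Left, the percent of cells of each library, thinned to 3000 UMIs, with UMIs of the simple pair (Krt8, Krt18), of the basal pair (Krt5, Krt14), of both or of neither. Right, the percent of cells with a UMI of both genes of a pair, with exact 95% binomial intervals. Cells with UMIs of both kinds make up 72.3% and 71.9% of adult mTEC, and no background share was measured in these libraries.

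One further pair was singled out after its values were seen. UMIs of Krt5 and Krt19 were together in more cells than the product gives in E13.5 TEC (157 cells, 2.04 times) and adult cTEC (23 and 15 cells, 1.54 and 2.01 times), and in the few cells with Krt19 at the ages between, but in fewer in adult mTEC (16 and 190 cells, 0.403 and 0.698 times). At E13.5 both genes were highest in 1 cluster, where Krt5 was found in 98.7% and Krt19 in 47.9% of thinned cells. Its 241 cells, led beside keratins by Krtdap, Pvrl4, Aldh3b2 and Dmkn, had Krt5 at 3961 CPM, Krt17 at 4149, Krt19 at 346.5 and Krt14 at 83.0, with Krt8 at 2083 and Krt18 at 3304. In the main other clusters of that library, of 554 and 965 cells, Krt5 was at 181 and 102 CPM, Krt17 at 162 and 84.5, and Krt19 at 31.2 and 47.2. The 20 E15.5 cells of the same cluster had Krt5 at 1851 CPM and Krt19 at 627. In the Krtdap-led cells of E13.5 TEC Krt5 and Krt14 thus made up 28.8% of the keratin UMIs at 0.0210 UMIs of Krt14 per UMI of Krt5, unlike the 1.80 and 1.81 of adult mTEC. These values describe clusters and were not tested.

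Within adult mTEC the members divided among cell subsets, which were named from marker genes that include no keratin. No name was given to 738 of 1585 cells in adult mTEC 1 and 3877 of 5615 in adult mTEC 2, so the subsets below cover less than the whole of either library. An unnamed cluster of 218 cells in adult mTEC 1 had Krt17 at 8701 CPM, above the mTEC I-like cells. mTEC I-like cells (474 and 1284 cells) were named from Ccl21a, Ly6a, Itga6, Trp63, Pdpn and Lifr. They held the highest Krt5 (1690 and 1129 CPM), Krt14 (3264 and 1601), Krt17 (7609 and 7684) and Krt7 (925 and 750) of the named subsets. Trp63 is an activator of Krt5 and Krt14 in skin, so the levels of these 2 keratins are not independent of the naming. Krt14 was found in 94.1% and 85.2% of these cells after thinning, and Krt5 in 96.0% and 89.6%. In adult mTEC 2 a resolution of 0.4 in place of 0.8 gave 654 mTEC I-like cells, with Krt14 at 2521 CPM. At 0.8 the mTEC I-like cells had the lowest Krt19, 2.90 and 19.8 CPM. Krt18 in them was at 2639 and 1614 CPM, or 1.68 and 0.993 UMIs per UMI of Krt8. mTEC III-like cells (88 and 304 cells, named from Ivl, Spink5 and other genes of differentiated epidermis) had Krt10 at 346 and 847 CPM, against 23.2 to 40.0 in the other subsets. They also held the most Krt15, 166 and 257 CPM, and Krt19 at 643 and 336. After thinning, Krt15 was found in only 7.14% and 6.51% of them, against 4.23% and 5.26% of mTEC I-like cells. Krt10 was found in 16.7% and 30.7% of mTEC III-like cells, against 11.2% and 9.11% of mTEC I-like cells. A minority of the subset thus carried these UMIs. Of the Krt80 UMIs of adult mTEC 2, the mTEC III-like cells had 43.9 CPM against 1.25 to 3.85 in the other subsets. Krt5 in mTEC III-like cells was at 687 and 644 CPM and Krt14 at 868 and 862. At a resolution of 1.2 this subset was 52 cells in adult mTEC 1, with Krt10 at 571, Krt15 at 281, Krt19 at 979.9 and Krt5 at 1148 CPM, while adult mTEC 2 had 305 cells with Krt10 at 843.

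At a resolution of 0.8, most keratin UMIs of tuft-like cells (mTEC IV-like, 9 and 150 cells) were of the simple pair. Krt8 was at 3356 and 3185 CPM and Krt18 at 3435 and 3379, together 88.0% and 73.2% of their keratin UMIs. Krt19 was at 730 and 651 CPM. Krt17 was at 138 and 1247, below mTEC I-like cells in both libraries. Krt5 and Krt14 had no UMI in the 9 cells of adult mTEC 1, which allows up to 59.2 CPM, and stood at 112 and 206 CPM in adult mTEC 2. In adult mTEC 1 the size of this subset depended on the clustering. At Leiden resolutions of 0.4 and 1.2 the tuft name fell on 95 and 146 cells, in which Krt17 was 59.0% and 62.2% of keratin UMIs against 1.79% in the 9 cells, so the values of the 9 cells rest on the resolution of 0.8. At 1.2 the Krt17 of the cells named tuft (7769 CPM) was above that of mTEC I-like cells (7609). In adult mTEC 2 it held 150 cells at 0.4 and 153 at 1.2. mTEC II-like cells were named in adult mTEC 1 alone (276 cells), with Krt5 at 26.8, Krt14 at 230 and Krt17 at 1315 CPM. At resolutions of 0.4 and 1.2 they were 538 and 263 cells, with Krt5 at 64.4 and 91.4 CPM, the lowest of the named subsets at those resolutions.

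A split by Aire, the regulator of self-antigen expression in mTEC, could be made in both libraries. Cells with at least 2 Aire UMIs (693 and 3185 cells) had Krt5 at 130 and 189 CPM, against 1329 and 721 in cells with none (768 and 1414 cells). Krt14 was at 385 and 426 against 2186 and 1152 CPM. Krt17 was at 2926 and 3345 against 7343 and 5095, Krt7 at 223 and 258 against 846 and 555, and Krt18 at 1014 and 1158 against 2116 and 1754. Krt8 differed least, at 1647 and 1730 against 1698 and 1886 CPM. Aire-positive cells were deeper, with a median of 12890 and 14366 UMIs against 7279 and 7240, and the part of depth in the split was not tested. Both libraries gave the same order for each of these 6 genes.

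**Figure D5:**
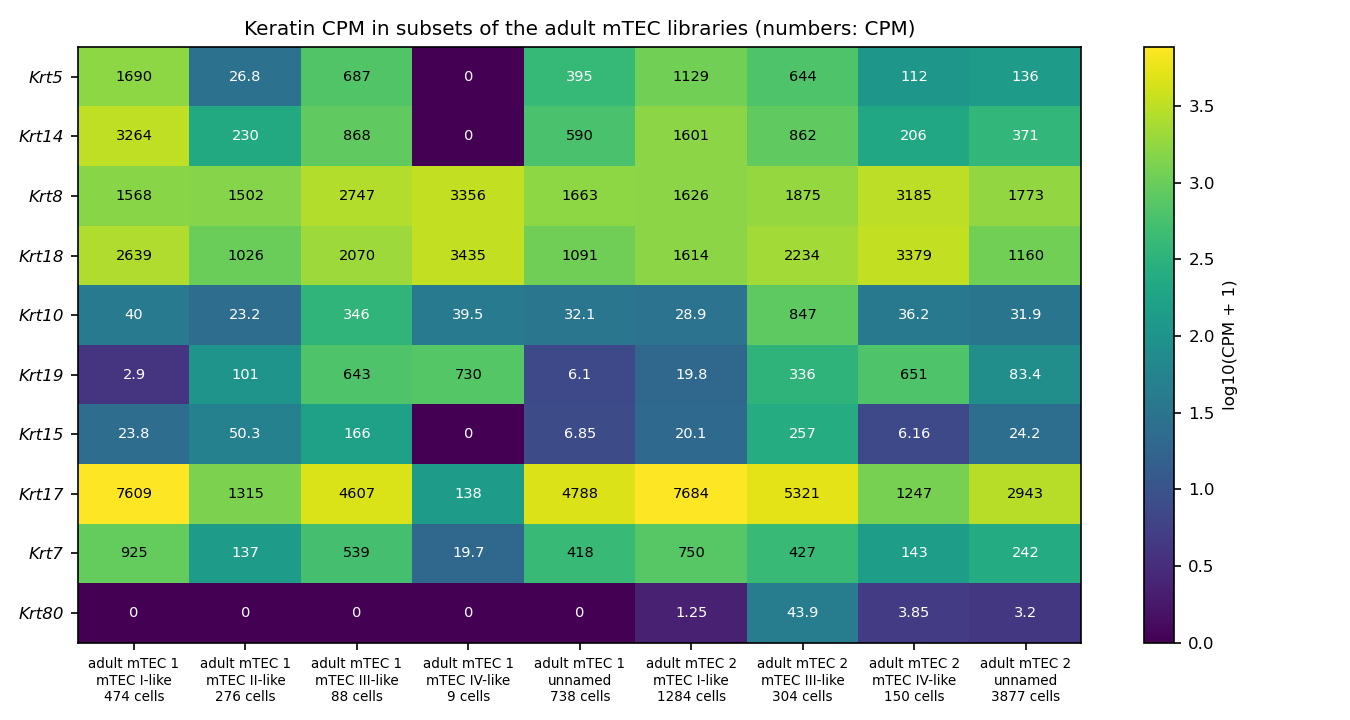
Colour and numbers give the CPM of each keratin (rows) in subsets of the 2 adult mTEC libraries (columns, with the number of cells), named from non-keratin markers at a resolution of 0.8. The mTEC I-like columns have the highest Krt5, Krt14 and Krt17 of the named subsets, the mTEC III-like columns the highest Krt10 (346 and 847) and the tuft-like columns the highest Krt8 (3356 and 3185) and Krt18.

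The rest of the keratin family was sparse. All 36 other Krt genes had a UMI in these cells, and 26 had a mean of at least 1 CPM over the 8 libraries. None reached 20. Of 28 tested between the adult lineages with edgeR, 25 were higher in mTEC (21.2% of all genes were) and none in cTEC, with a median log2 fold change of −4.42 against −0.14 over all genes tested. With the 6 at 0 in both libraries of adult cTEC set to the limit of 3 counts per library, the median was −3.35. A gene high in mTEC alone passes the filter on low counts through mTEC, so the count of 25 has no weight as evidence on the family. The highest by mean CPM were Krt16, a wound-induced type I keratin (10.2 and 0.495 CPM in adult cTEC, 30.02 and 49.4 in adult mTEC), Krt20, a type I keratin of intestinal and tuft cells (0 and 1.73 against 42.5 and 50.3), and Krt23 (45.5 and 11.1 against 9.63 and 22.7). Krt16 and Krt20 were called (edgeR adjusted p = 1.08e-06 and 2.68e-12) and Krt23 was not (0.429). Krt16 in adult cTEC 2 and Krt20 in adult cTEC 1 lay under the limit of 3 counts. Like the count of 25, these calls have no weight as evidence. Over the cortical line 11 were tested and 1, Krt23, passed (adjusted p = 0.0300 in edgeR), beside 4.74% of all genes that rose. Krt23 was at 0.0728 CPM or less in each library up to NB, so it passed the filter on low counts through the adult libraries alone and its call has no weight as evidence.

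Keratin filaments end at desmosomes, which join cells, and at hemidesmosomes, which join cells to the matrix. Of 12 desmosome genes, 11 were tested between the adult lineages, 3 were higher in cTEC and 2 in mTEC, with a median log2 fold change of 0.18, beside 11.2% and 21.2% of all genes and a median of −0.14. Counts this small are no result about the list. Dsp, the plakin that ties filaments to the desmosome, was at 333 and 263 CPM in adult cTEC against 85.5 and 90.8 in mTEC (log2 fold change 1.68, SE 0.39, edgeR adjusted p = 0.000374). The desmosomal cadherins Dsc3 (2.24, adjusted p = 5.7e-06) and Dsc2 (1.30, adjusted p = 0.0072) were also higher in cTEC. Dsg2 (−0.997, edgeR adjusted p = 0.0399) and Pkp2 (−2.49, edgeR adjusted p = 0.00291) were higher in mTEC. Pkp2 was at 1.39 and 1.49 CPM in adult cTEC, and its value in adult cTEC 1 did not exceed the limit of 3 counts. Its call therefore has no weight as evidence. Of 5 hemidesmosome genes, 2 were higher in cTEC, Dst (1.80, adjusted p = 0.000122) and Plec (0.98, adjusted p = 0.0474), both linkers of filaments, and none in mTEC, again beside 11.2% and 21.2% of all genes. Of the desmosome genes 0 and of the hemidesmosome genes 1, Itga6, passed along the cortical line (0.37 per stage, adjusted p = 0.0347 in edgeR), beside 7.5% of all genes.

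Of 9 regulators of keratin genes, 2 were higher in cTEC and 4 in mTEC, beside 11.2% and 21.2% of all genes. Trp63, the p53-family factor of basal epithelium and an activator of Krt5 and Krt14 in skin, was at 222 and 90.6 CPM in adult cTEC and 34.3 and 19.3 in adult mTEC (log2 fold change 2.39, SE 0.39, edgeR adjusted p = 6.88e-07), the opposite order to Krt5 and Krt14. Grhl2, a grainyhead factor of epithelial junctions, was higher in cTEC (1.61, adjusted p = 0.00231). Grhl3 (−2.64), Tfap2c (−2.54), Ovol1 (−1.66) and Elf3 (−1.03), factors of epidermal and epithelial differentiation, were higher in mTEC, with adjusted p-values from 0.00192 to 0.038 in edgeR. In adult cTEC, Grhl3 was at 1.39 and 0.990 CPM and Tfap2c at 3.71 and 0.495. Grhl3 in adult cTEC 1 and Tfap2c in adult cTEC 2 did not exceed the limit of 3 counts (1.39 and 0.743 CPM), so these calls have no weight as evidence. Klf4, Klf5 and Tfap2a did not pass, and none of the 9 passed along the cortical line, where 7.5% of all genes did, so that a count of 0 says little. Of 6 other intermediate filament genes, Vim, the filament of mesenchymal cells, was at 40.8 and 12.4 CPM in adult cTEC against 369 and 344 in mTEC (−4.04, adjusted p = 1.11e-11). Des, the filament of muscle, was at 5.57 and 0.743 against 47.6 and 37.9 (−4.18, edgeR adjusted p = 8.9e-10). Its value in adult cTEC 2 did not exceed the limit of 3 counts, so its call has no weight as evidence. Nes, Lmna, Lmnb1 and Gfap did not pass (edgeR adjusted p from 0.211 to 0.320). The 6 genes thus had 2 calls higher in mTEC, beside 21.2% of all genes, and none in cTEC, beside 11.2%. Along the cortical line 1 of the 6 rose and 1 fell, beside 4.74% and 2.77% of all genes, both nuclear lamins, Lmna rising by 1.01 per stage (adjusted p = 0.0282) and Lmnb1 with a slope of −0.82 (adjusted p = 0.012).

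For each member the genes with the most similar pattern were sought among 5976 other genes with a mean of at least 20 CPM, by Pearson's r of log2(CPM + 10) over the 8 libraries. The libraries share lineage, age and data set, and r over 8 points is a description only. Krt5 was most like Mpzl2 (r 0.987), Krtdap (0.957) and Mcmbp (0.939). Krt14 was most like Ifi203 (0.997), Mndal (0.996) and Mthfsl (0.994), and Krt7 like Ethe1 (0.976), Ifi27l2a (0.968) and Bst2 (0.964). Nearest to Krt8 were Lrpap1 (0.978), 1110012L19Rik (0.977) and Leng9 (0.976), and nearest to Krt18 were 1810043G02Rik (0.995), Exoc7 (0.992) and Slc46a2 (0.991). Krt17 paired with Stoml1 (0.973), Mif4gd (0.971) and Lrrk1 (0.971). Krt15 followed Cldn7 (0.990), Hspb1 (0.989) and Cldn3 (0.988), and Krt19 followed Igfbp5 (0.959), Gsto1 (0.920) and Nucb2 (0.920). For Krt10, which varied little, the highest were 5031425E22Rik (0.794), Smdt1 (0.752) and Ndufa4 (0.740). The values for Krt80, 0.917 for Cenpb, 0.907 for Ranbp2 and 0.840 for Gkap1, set adult cTEC 2 and mTEC 2 against the rest.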

How the data were processed

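Droplet libraries (10x Genomics Chromium, 3′ chemistry v2) were sequenced from sorted TEC. Per the submitters' processing notes in the labels, the tools were bcl2fastq 2.17, STAR 2.5.1b and Cell Ranger 2.0.1, with the build mm10. In data set 2 the header lines of the matrices give version 3.0.1 of Cell Ranger. The deposited values are raw UMI counts per gene and cell, made by the authors' counting and not normalized. Whether reads that match several genes were kept is not given in the sources used here.

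The 10 keratins, the gene lists and the pairs were chosen with earlier results of these data known. Cells with over 5% mitochondrial UMIs or over 5000 genes were left out. Cells of each data set were clustered without Krt genes (scanpy 1.11.5, Leiden resolution 0.8), and a cluster was called non-epithelial where at least 3 markers and 60% of a marker list were at 4-fold or more, a limit set on the data. Clusters of each mTEC library were named where at least 3 and over 50% of a subset's markers were at 2-fold or more. No doublet caller was run. Instead, a check without the 10% of cells with the most UMIs was added after seeing the data.

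UMIs were summed per library over epithelial-like cells and given as CPM, with exact Poisson intervals. Shares of cells were computed on cells thinned to 3000 UMIs, with exact (Clopper-Pearson) 95% intervals. edgeR 4.0.16 (TMM scaling, filterByExpr, quasi-likelihood test, adjusted p under 0.05 over all genes tested) compared adult cTEC with adult mTEC over 4 libraries and fitted a slope on stage over 6, both with the data set as a term. The SE is the log2 change divided by the square root of F. On simulated counts for 15627 genes, 186 of 200 genes changed 4-fold were recovered in the first comparison. For the slope, 194 of 200 changed 2-fold per stage were recovered among 14340 genes. False calls were 3.63% and 6.73% of the calls made. In both simulations the changed genes were drawn from the more abundant genes alone. The recovery therefore does not cover low genes such as Krt15, Krt80 and the other Krt genes. Alternatives were DESeq2 1.42.0 as a test, its scaling, no filter, other choices of cells, no data set term and each adult library left out. The text names the members and the genes of the lists as fixed, and per member the 3 most similar genes. Gene positions are from GENCODE vM21 and promoters from RefSeq.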

Additional observations from a re-analysis of the deposited data

Results flagged for a closer look

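The ratio of adult cTEC to adult mTEC had opposite signs in the 2 data sets for 1 member, Krt10, with a log2 ratio of 0.14 in data set 1 and −0.083 in data set 2. Both are small beside the SE of 0.38 of its fitted change, and the difference between the data sets was not tested, as each holds 1 library of each lineage.

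The 171 thymocyte-like cells of NB cTEC were left out of the comparisons, but they held keratin UMIs, Krt8 at 6150 CPM and Krt18 at 11889 CPM, against 6125 and 11643 in the epithelial-like cells of that library. Krt8 was found in 98.8% of the 168 that could be thinned. They also held Epcam at 364 CPM. In thymic nurse cells, which the study names as a likely identity of a thymocyte cluster in its newborn and adult cTEC, thymocytes lie enclosed within a cTEC, so that a droplet can hold RNA of both. Whether these cells are nurse cells was not tested, and their values are not used as a background. Their median was 8600 UMIs, against 6024 in the epithelial-like cells.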

How the results depend on the processing

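Under every alternative that kept all libraries in edgeR, the counts of genes called stayed within 1.5 times of 5068 for adult cTEC against adult mTEC and of 1076 for the age trend over cortical libraries. With DESeq2 they were 2602 and 2826, and the trend in data set 1 alone gave 438. Leaving out 1 adult library gave 1107 to 2874 genes (between these, 2402 and 2688) for the lineages and 16 to 460 for the trend. These fits have fewer libraries, and the cause of the other changes was not tested.

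Signs that changed all belonged to members that did not pass. Between lineages Krt80 was at 0.46 with DESeq2 and 0.12 without adult cTEC 1, Krt10 at 0.029 with all deposited cells, 0.10 without adult cTEC 1 and 0.17 without adult mTEC 2, and Krt19 at −1.74 in cells with cortical transcripts. For the trend, Krt19 was at −0.00489 in those cells and −1.33 without adult cTEC 1 (0.308 without adult cTEC 2), and Krt15 was at −1.18 and 0.089. Without E13.5 TEC, Krt5 was at 0.48, Krt8 at −0.14, Krt18 at −0.079 and Krt17 at −0.0015. Krt19 passed between lineages with DESeq2's scaling in edgeR (adjusted p = 0.041).

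Of the shares of cells, 134 of 320 alternative values, and of pairs 133 of 352, stayed within the main interval, and most of the rest came with another depth or 2 UMIs asked. Of the keratin levels in mTEC subsets, 49 moved past their counting interval at another resolution and 91 did not. No paired analysis by replicate number was possible because the labels give no replicate numbers, and the data set served as the block in both comparisons. Depth limits all values of the small adult cTEC libraries. Krt15 at E17.5, 0.722 CPM, lay above the limit of 3 counts in that library (0.0333 CPM). At NB its 0.0432 CPM lay under the limit of 0.130 CPM.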
